A study of Mus musculus with 24 samples.

Results

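Recombination d6 was studied in 4 of the 24 RNA libraries of this series: 2 replicates of the d6 parental line and 2 of d6 clone 16. All 24 libraries come from F121/9, a female mouse embryonic stem cell line with a 129/Sv genome and a CAST/EiJ genome, kept on gelatin in serum-free medium with leukemia inhibitory factor, the MEK inhibitor PD0325901 (1 µM) and the GSK-3 inhibitor CHIR99021 (3 µM). The labels give the genotype of the parental line as control and that of clone 16 as recombined. They do not say what kind of rearrangement d6 is or which chromosome copies it touches, and the recombined genotype is represented by 1 clone, so an effect of d6 and a feature of that clone cannot be told apart. The study asked how recombination changes gene expression. Its other recombinations are d3, i7, i10 and i12, each with a parental line of its own. The deposited table splits the reads of every library into 129S1 and CAST counts. Both were analysed separately, as their sum and as their ratio, and libraries were also compared within replicate number. The labels call the replicates biological duplicates without saying what separated them, so p-values measure the spread between these samples. Unless stated otherwise, that spread was estimated in 1 fit of all 24 libraries, not from the d6 libraries alone.

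The d6 libraries held 6345947 to 13522662 counts. Among them, clone 16 replicate 1 stood apart in its mitochondrial share, 4.48% of counts against 7.50% to 8.61% in the other 3. The other 20 libraries of the series had 2.85% to 8.21%, with a median of 4.25%. Outside the mitochondrial genome, 48.7% to 48.9% of the counts of each d6 library were assigned to 129S1. The 7 genes that define embryonic stem cells were high in all 4 libraries. The summed level of these genes (Pou5f1, Sox2, Nanog, Esrrb, Klf4, Tfcp2l1 and Zfp42) was 6704 and 7096 CPM (counts scaled to the effective library total) in the parental line and 7014 and 7167 CPM in clone 16, against 6085 to 8394 CPM in the other 20 libraries. Of the other cell types checked, the 6 primitive endoderm markers summed to 8.09 and 6.15 CPM in the parental line and 8.36 and 3.36 CPM in clone 16. The other 20 libraries had 3.48 to 12.4 CPM of these markers, so clone 16 replicate 2 was just below them. The 5 fibroblast markers summed to 5.66 and 8.04 CPM and to 5.32 and 11.0 CPM. The 4 neuroectoderm markers summed to 92.8 and 87.5 CPM and to 85.9 and 107 CPM, and the 5 mesendoderm markers to 22.2 and 17.5 CPM and to 23.4 and 19.5 CPM. The neuroectoderm and mesendoderm sums were within the range of the other 20 libraries. Of the 5 markers of the 2-cell-like state, 3 were at 0 in all 4 libraries. The 4 formative and primed epiblast markers differed between replicate numbers more than between lines, at 236 and 134 CPM in the parental line and 240 and 141 CPM in clone 16. Both replicate 1 libraries were above the other 20 libraries, which reached 221 CPM.

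The genes that passed after the filter on low counts, without replicate number in the fit, lie on chromosome 9 around Tdgf1. With replicate number as a block, genes on other chromosomes passed too. Pseudogenes were 10 of 14 calls in total counts, 19 of 21 in 129S1 counts and 18 of 27 in CAST counts. Processed pseudogenes alone are 10.8% of the genes tested in total counts, and the share among genes tested per allele is not given here. Tdgf1 encodes Cripto, a membrane-anchored co-receptor that lets Nodal, a ligand of the TGF-beta family, signal through activin receptors and SMAD proteins. In the early embryo this pathway patterns mesoderm and endoderm, and embryonic stem cells express both ligand and co-receptor. In an F1 hybrid, sequence differences between the parental genomes let a read be assigned to one of the copies of a gene, so a change on a single chromosome copy can be seen even where the summed level hides it.

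Tdgf1, Lrrc2 and Rtp3, which differed in the summed counts with replicate number as a block, are next to each other, so the 250 bases before the first start that RefSeq lists for each are shown (RefSeq, build GRCm38.p6). Capitals mark letters searched on both strands: GGGCGTGG, a form of the KLF site; TATAAA, the TATA box; and CTTTGA, a core TCF/LEF site. These motifs were chosen after the sequences had been seen. The windows are chr9:110946159-110946408 on the minus strand for Tdgf1, chr9:110951295-110951544 on the plus strand for Lrrc2 and chr9:110989714-110989963 on the minus strand for Rtp3. The Tdgf1 and Lrrc2 windows adjoin the gene spans given below, which are from GENCODE. The Rtp3 window lies inside the span of its gene, so it is not upstream of every annotated start.
Tdgf1: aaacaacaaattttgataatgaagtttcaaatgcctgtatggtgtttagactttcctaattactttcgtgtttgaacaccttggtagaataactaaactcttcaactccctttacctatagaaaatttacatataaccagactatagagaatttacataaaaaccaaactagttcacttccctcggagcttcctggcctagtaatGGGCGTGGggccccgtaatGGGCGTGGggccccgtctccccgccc
Lrrc2: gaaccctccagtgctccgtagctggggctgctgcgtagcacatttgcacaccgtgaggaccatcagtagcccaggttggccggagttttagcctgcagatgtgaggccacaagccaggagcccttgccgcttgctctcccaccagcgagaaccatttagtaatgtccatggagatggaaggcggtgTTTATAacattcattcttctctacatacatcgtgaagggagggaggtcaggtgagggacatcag
Rtp3: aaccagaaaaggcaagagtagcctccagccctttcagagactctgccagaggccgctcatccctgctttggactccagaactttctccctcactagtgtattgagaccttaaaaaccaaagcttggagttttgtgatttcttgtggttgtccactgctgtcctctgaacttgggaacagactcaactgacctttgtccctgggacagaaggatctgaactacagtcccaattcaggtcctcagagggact
The Tdgf1 window held 2 copies of GGGCGTGG, which 4.79% of 32851 RefSeq windows of this length hold at least once. The Lrrc2 window held 1 TATAAA on the reverse strand, a motif present in 12.4% of windows. The Rtp3 window held none of the 3, and CTTTGA, present in 13.8% of windows, was in none of them. A match is a string of letters, not a measured binding site. The windows are reference sequence and do not show the CAST or 129 differences by which reads were divided.

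On the CAST copy, Tdgf1 and its neighbours fell in clone 16. Of 13951 genes tested in CAST counts, 5 passed an adjusted p of 0.05 (0.0358%), all lower in clone 16 and all on chromosome 9 between Als2cl and Dclk3, a stretch of 609 kb. They include Tdgf1, Lrrc2, Rtp3 and Epm2aip1. When replicate number was added to the fit as a block, 27 passed (0.194%), 14 of them lower, and Als2cl joined them. In 129S1 counts, none of 13911 genes passed (0.0%) in edgeR's quasi-likelihood test or in DESeq2, with 109 at an unadjusted p under 0.05, and 21 passed with the block (0.151%), none of them a gene of this stretch. The borders of this stretch were not set independently of these data, so the summaries that follow describe it and are not a test. Every one of the 10 genes of the stretch that could be tested in CAST counts had a lower value in clone 16. Their median log2 difference was -5.67, against 0.0040 over all genes tested. In 129S1 counts the median over the 11 tested genes of the stretch was -0.098, against -0.00020 over all genes.

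Tdgf1 (ENSMUSG00000032494.12, chr9:110939603-110946158, minus strand) had the deepest counts. Its CAST counts were 3156 and 3185 in the parental replicates and 378 and 485 in clone 16. Its 129S1 counts were 6530 and 9003 in the parental line and 7108 and 9534 in clone 16. In these raw counts, from libraries of unequal depth, the lines did not overlap for CAST and did overlap for 129S1. In CAST CPM, scaled within the CAST counts, the level fell from 851 ± 248 (SD, n = 2) to 84.3 ± 37.9 (SD, n = 2). The log2 change was -3.34 with an SE of 0.43 (adjusted p = 0.00107). The 129S1 level was 2045 ± 1014 in the parental line and 1557 ± 740 in clone 16 (log2 difference -0.39, SE 0.42, adjusted p = 1). With replicate number as a block the 129S1 difference was again -0.39, with a smaller SE of 0.13, and did not pass (adjusted p = 0.625). The 129S1 copy is therefore not shown to be unchanged. CAST thus gave 32.6% and 26.1% of the Tdgf1 counts in the parental replicates and 5.05% and 4.84% in clone 16, with 95% Wilson intervals of 4.58% to 5.57% and 4.44% to 5.28% in the clone. A remainder of CAST counts stayed in both clone libraries. The processed pseudogene Tdgf1-ps1 on chromosome 16 had CAST counts of 410, 494, 638 and 619 in the same 4 libraries (parental first). Its 129S1 counts were 36, 4, 0 and 0. Whether reads were divided between the gene and its copies was not tested.

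Lrrc2 (chr9:110951545-110984066, plus strand), a leucine-rich repeat protein gene that starts next to Tdgf1, had 268 and 121 CAST counts in the parental line and 0 and 1 in clone 16. Its CAST level fell from 48.2 ± 13.0 to 0.115 ± 0.162 CPM (log2 change -8.64, SE 0.62, adjusted p = 4.39e-07). Its 129S1 counts were 347 and 173 in the parental line and 467 and 218 in clone 16, a difference of -0.10 on the log2 scale of the fit. Clone 16 therefore kept the 129S1 level of Lrrc2 within the spread of the replicates while its CAST counts came close to 0.

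Rtp3 (chr9:110984935-110990583, minus strand), a receptor transporter protein that helps taste receptors reach the cell surface, was read mainly from CAST in the parental line, at 87.2% and 76.6% of its counts. Its CAST counts were 41 and 36 in the parental line and 0 and 0 in clone 16. Against a floor of 3 counts over both clone libraries, its CAST level was at least 35.5-fold lower (adjusted p = 0.000841). Its 129S1 counts of 6, 11, 9 and 5 overlapped between the lines. Gm10030 and 1700061E17Rik overlap Rtp3 on the opposite strand. Gm10030 had 8 and 5 CAST counts in the parental line and 0 and 0 in clone 16, at least 5.99-fold lower, but did not pass (adjusted p = 0.277). Whether the counting used strand is not given in the sources used here, so counts of these overlapping genes are uncertain.

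Epm2aip1 (chr9:111271929-111279093, plus strand), which encodes a partner of laforin, a glycogen phosphatase, had 216 and 92 CAST counts in the parental line and 2 and 0 in clone 16. Its CAST level fell from 38.0 ± 11.8 to 0.152 ± 0.215 CPM (log2 change -7.51, SE 0.61, adjusted p = 3.79e-06). Its 129S1 level was 32.8 ± 6.86 CPM in the parental line and 31.7 ± 6.21 CPM in clone 16.

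**Figure D1:**
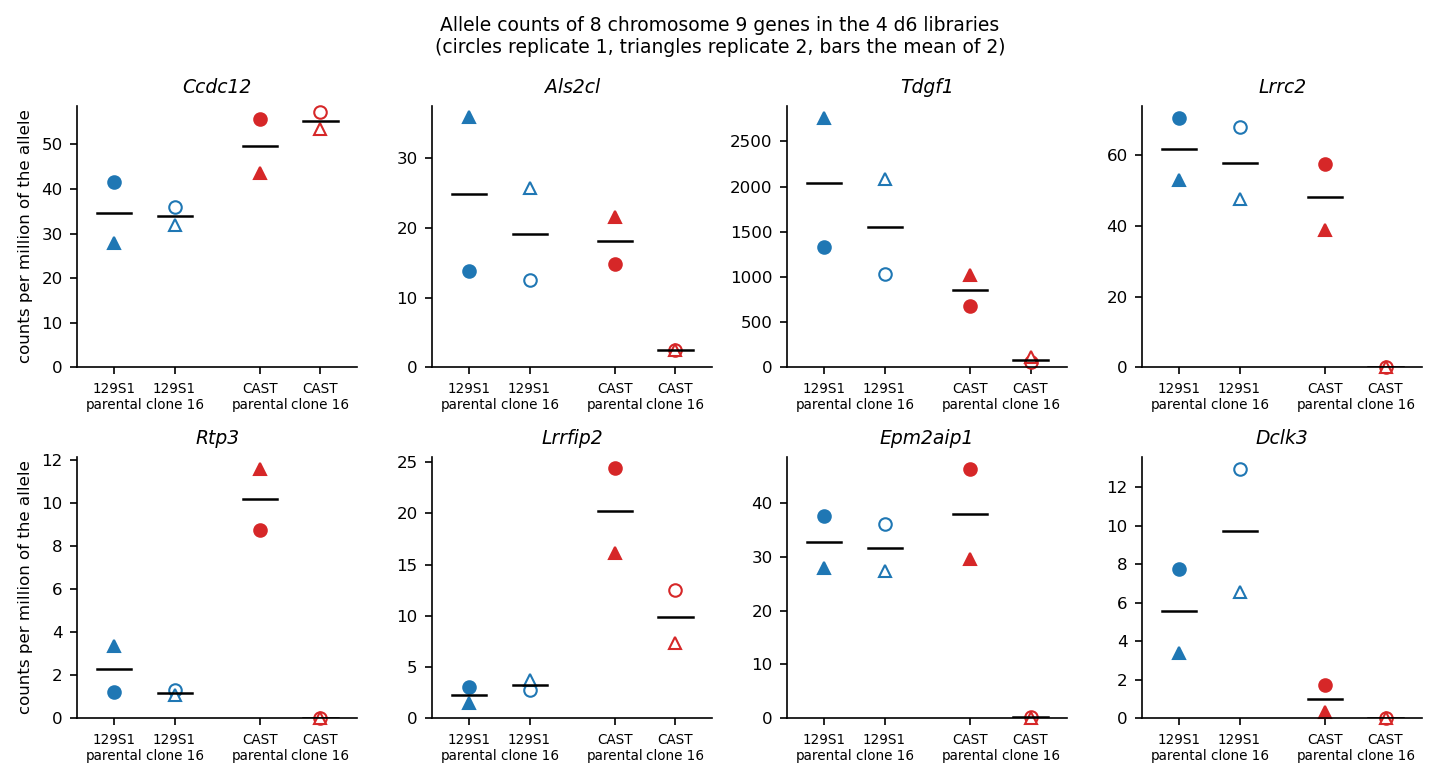
CPM of each allele (y axis, linear from 0) for 8 genes of chromosome 9 in the 4 d6 libraries, with 129S1 in blue, CAST in red, filled symbols for the parental line and open symbols for clone 16. The CAST points of Tdgf1, Lrrc2, Rtp3 and Epm2aip1 lie near 0 in clone 16 while the 129S1 points of both lines are at similar heights, and Ccdc12, left of the stretch, kept both alleles.

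Als2cl (chr9:110879870-110900530, plus strand), a relative of the guanine exchange factor alsin, kept more of its CAST signal. Its CAST counts were 69 and 67 in the parental line and 16 and 11 in clone 16, and its 129S1 counts were 68, 117, 86 and 118 in the same order. The CAST difference of -2.85 (log2, SE 0.60) did not pass without the block (adjusted p = 0.338) and passed with it (-2.82, adjusted p = 0.000125). Als2cl overlaps Tmie and Gm43127 on the opposite strand.

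Lrrfip2 (chr9:111117592-111225668, plus strand), whose product binds Flightless-1 and Dishevelled, lies inside the stretch. It had the smallest CAST decrease among the genes of the stretch tested in CAST counts. CAST gave 114 and 50 counts in the parental line and 82 and 32 in clone 16, or 88.4% and 90.9% of its counts against 81.2% and 65.3%. The log2 difference in CAST counts was -1.02 (SE 0.32) and did not pass with or without the block (adjusted p = 1 without it and 0.166 with it). Its 129S1 counts were 15 and 5 in the parental line and 19 and 17 in clone 16.

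Dclk3 (chr9:111439081-111489118, plus strand), a doublecortin-like kinase gene at the right end of the stretch, was read mainly from 129S1. It had 8 and 1 CAST counts in the parental line and 0 and 0 in clone 16, at least 4.15-fold lower over the group, which did not pass (adjusted p = 1). Its 129S1 counts were 38 and 11 in the parental line and 89 and 30 in clone 16, a log2 difference of 0.79 (SE 0.42) that did not pass either. The lines differed less than the replicate numbers did. Trank1, an ankyrin repeat gene, had 0 and 3 CAST counts in the parental line and 0 and 0 in clone 16, too few to test.

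The nearest genes with enough counts on each side of the stretch kept both alleles. The nearest tested gene with more than a few counts to the left, Ccdc12, ends 168 kb before Als2cl starts. It had 260 and 135 CAST counts in the parental line and 376 and 233 in clone 16, and CAST gave 56.0%, 59.7%, 60.3% and 61.5% of its counts in the 4 libraries. Between them, Prss42 had 2 and 6 CAST counts in the parental line and 0 and 0 in clone 16, and Prss50 had 1 and 0 against 1 and 0, too few to place a border. Of the 29 genes tested to the left of Als2cl within 2 Mb of Tdgf1, 24 could be tested in each allele and none passed in either, with a median log2 difference of 0.044 in both alleles. To the right, no gene that starts after Dclk3 within 2 Mb of Tdgf1 had enough counts to be tested. The next ones, Pdcd6ip (194 and 143 CAST counts in the parental line, 271 and 196 in clone 16) and Clasp2 (260 and 161 against 370 and 238), start 2213 kb and 2302 kb beyond the start of Dclk3 and kept their ratio, with log2 ratio differences of -0.15 and -0.048 that did not pass.

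**Figure D2:**
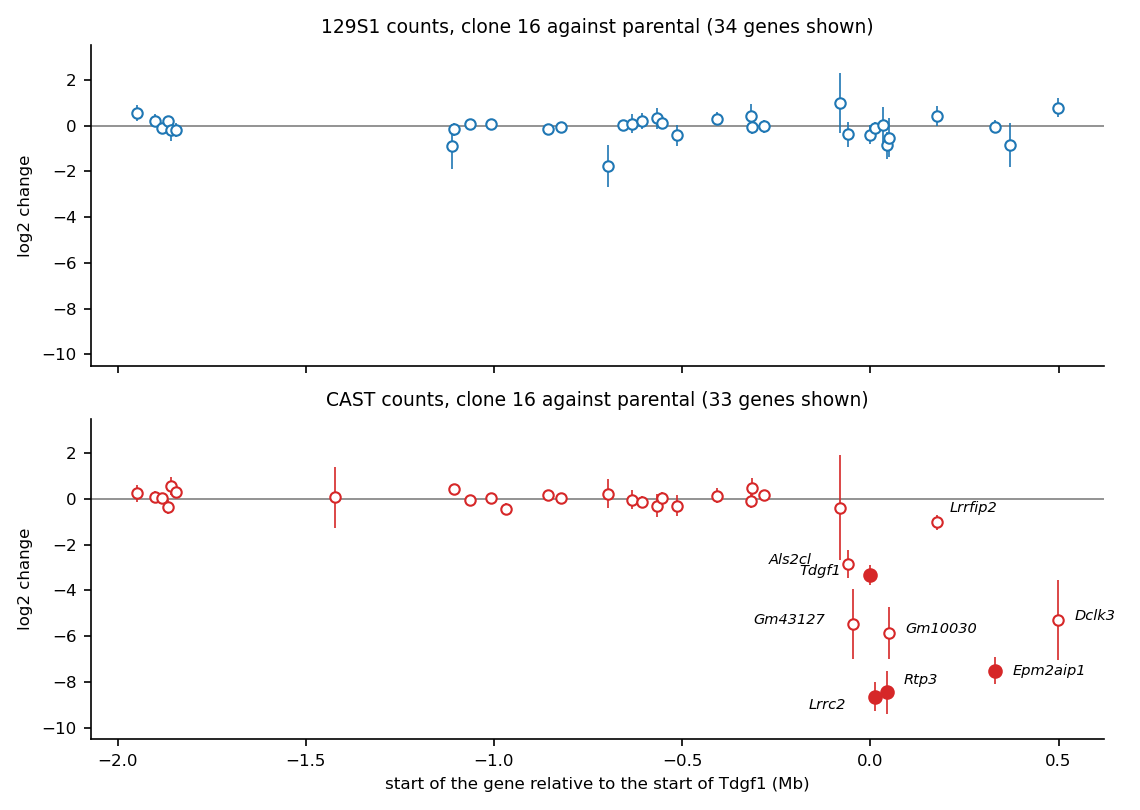
Log2 difference of clone 16 against parental (y axis, with the standard error) of each gene tested near Tdgf1, by the start of the gene relative to that of Tdgf1 in Mb (x axis), for 129S1 counts above and CAST counts below. Filled points passed an adjusted p of 0.05; in CAST counts the points drop from Als2cl to Dclk3, with Lrrfip2 nearest to 0, while the 129S1 points stay around 0.

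The ratio of 129S1 to CAST counts, tested within libraries, picked out the same stretch. Of 10795 genes with at least 10 mean counts per allele, 5 passed (0.0463%), all shifted towards 129S1 in clone 16 and all in the stretch. Lrrc2 shifted by 8.59 on the log2 scale (SE 0.54, adjusted p = 4.51e-09), Epm2aip1 by 7.48 (SE 0.38, adjusted p = 4.27e-10), Tdgf1 by 2.99 (SE 0.23, adjusted p = 1.09e-07) and Als2cl by 2.48 (SE 0.36, adjusted p = 0.00281). Als2cl did not pass without parental replicate 1 (adjusted p = 0.0657), without clone 16 replicate 2 (0.292) or with only the d6 libraries (0.595), and it passed without parental replicate 2 (0.00121) or clone 16 replicate 1 (0.00577). Lrrfip2 shifted by 1.42 (SE 0.52) and did not pass. With the block, 33 genes passed (0.306%), 5 of them on chromosome 9 and 20 of them pseudogenes.

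In the summed counts, 2 of 16253 genes passed (0.0123%), both lower in clone 16. Rtp3 fell from 6.15 ± 1.78 to 0.613 ± 0.0756 CPM (counts 47 and 47 against 9 and 5; log2 change -3.27, SE 0.49, adjusted p = 0.0328). With any 1 of the 4 libraries left out it no longer passed (log2 differences -3.55 to -2.95, adjusted p from 0.0600 to 1). At an unadjusted p under 0.05 there were 122 genes (0.751%). With the block, 14 genes passed (0.0861%), 4 lower and 10 higher, and 836 had an unadjusted p under 0.05 (5.14%). The 4 lower ones are protein-coding and lie in the chromosome 9 stretch, Tdgf1, Lrrc2 and Rtp3 among them.

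In summed counts Tdgf1 passed with the block only. It had 1008 and 1920 CPM in the parental line and 555 and 1122 CPM in clone 16, so parental replicate 1 was below clone 16 replicate 2. Within replicate number it was lower in clone 16 in both pairs, with log2 differences of -0.86 and -0.78 (0.5 CPM added). The fitted log2 difference was -0.80 (SE 0.42, adjusted p = 1) without the block and -0.82 (SE 0.12, adjusted p = 0.0123) with it. Leaving out 1 library moved the value without the block from -0.27 (without parental replicate 2) and -0.38 (without clone 16 replicate 1) to -1.20 (without parental replicate 1) and -1.40 (without clone 16 replicate 2). Lrrc2 had 615 and 294 total counts in the parental line and 467 and 219 in clone 16, with -0.90 (SE 0.23, adjusted p = 1) without the block and -0.90 (SE 0.15, adjusted p = 0.0360) with it. Epm2aip1 did not pass with either (-1.12, and -1.11 with an adjusted p of 0.0702). Neither did Als2cl (-0.98, and -0.96 with an adjusted p of 0.0834).

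The 10 genes that rose with the block are all processed pseudogenes, intronless copies of messenger RNAs scattered over the genome, although processed pseudogenes are 10.8% of the genes tested. They are Gm13464, Hspe1-ps2, Rps23-ps1, Rps18-ps3, Gm4342, Rps12-ps5, Gm3800, Gm5340, Gm15566 and Gm16165, on 7 chromosomes. Rps23-ps1, a copy of a ribosomal protein gene, had 66.3 and 18.1 CPM in the parental line and 252 and 59.6 CPM in clone 16 (log2 change 1.84 with the block, adjusted p = 0.0338). Hspe1-ps2, a copy of a chaperonin gene, had 49.4 and 12.6 CPM against 145 and 33.7 CPM (1.50, adjusted p = 0.0276). In both, replicate 1 was higher than replicate 2 in each line, and parental replicate 1 was above clone 16 replicate 2, so the lines overlapped. Without the block none of the 10 passed after the filter on low counts, and all 10 passed when that filter was dropped (adjusted p up to 0.0213). Over all 1752 processed pseudogenes the median log2 difference was 0.065, against -0.00074 over 12704 protein-coding genes. The share of counts in processed pseudogenes was 7.23% and 7.05% in the parental line and 8.0% and 7.17% in clone 16, against 7.67% to 8.80% in the other 20 libraries. Clone 16 replicate 1, the d6 library with the lowest mitochondrial share, was within that range and the other 3 d6 libraries were below it. The part of these library differences in the pseudogene values was not tested, and reads of near-identical copies may be split by the counting.

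**Figure D3:**
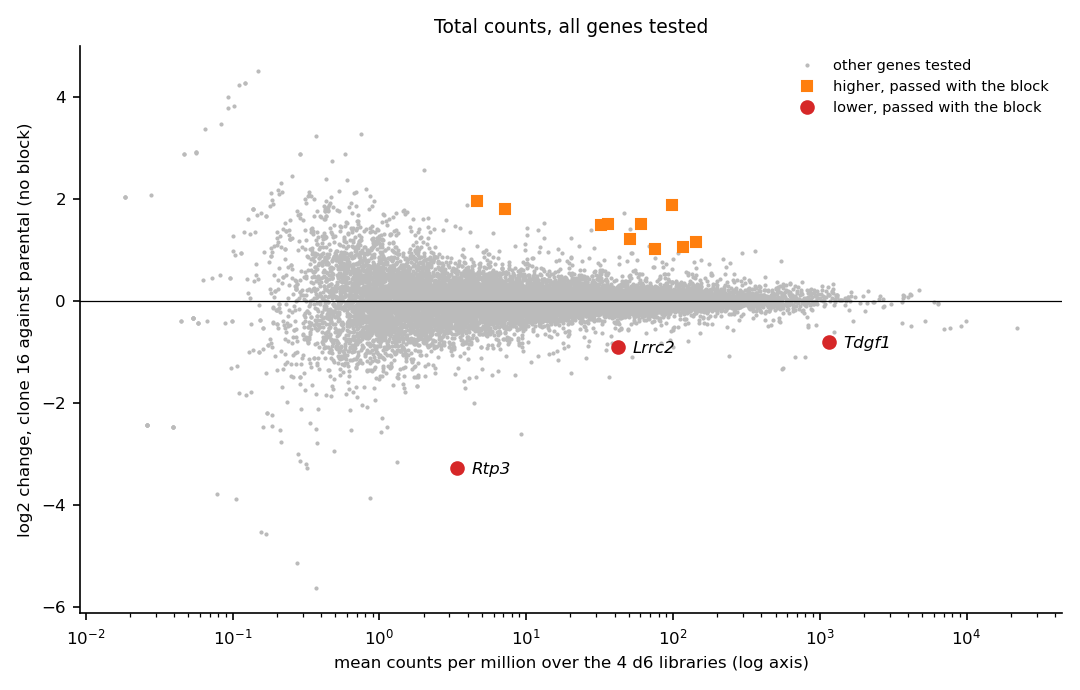
Log2 difference in total counts of clone 16 against parental, fitted without the block (y axis), by mean level in CPM over the 4 d6 libraries (x axis, log scale), for the genes tested. Tdgf1, Lrrc2 and Rtp3 (red) lie below 0, and the 10 processed pseudogenes that passed with the block (orange squares) lie above.

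Beyond Tdgf1, the genes of the Nodal pathway did not pass in either direction. Of 23 listed genes 19 were tested, and 1 (Tdgf1, with the block) passed. The median log2 difference was 0.024, against 0.0014 over all genes. The ligand Nodal was at 86.7 and 55.0 CPM in the parental line and 79.2 and 57.0 CPM in clone 16 (log2 difference -0.06, SE 0.37). Gdf3, a related ligand, was at 157 and 119 CPM against 138 and 134 CPM. Lefty2, a secreted inhibitor that Nodal signalling induces, was at 272 and 216 CPM against 234 and 196 CPM (-0.18, SE 0.52). Lefty1, the other inhibitor, was at 13.2 and 8.35 CPM against 13.8 and 6.60 CPM. The receptor genes Acvr1b (4.89, 5.83, 5.19 and 6.72 CPM) and Acvr2b (6.97, 8.35, 6.96 and 8.96 CPM) overlapped between the lines. Smad7, an intracellular inhibitor, was at 58.0 and 51.4 CPM against 48.9 and 44.3 CPM (-0.23, SE 0.27). Cfc1, the gene of the other co-receptor of this family, had 1 to 4 counts per library and was not tested.

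Few genes of the other lists passed. Of 259 tested genes on the 20 lists, 1 passed without the block (Rtp3) and 3 passed with it (Rtp3, Lrrc2 and Tdgf1). Over all genes tested, 0.0123% passed without the block and 0.0861% with it. Leaving out Tdgf1 and the list of chromosome 9 neighbours, 1 of 248 had an unadjusted p under 0.05 without the block, against 0.751% over all genes. This was Amn, an endoderm gene, with 1 and 0 counts in the parental line and 11 and 5 in clone 16. With the block, 15 of the 259 had an unadjusted p under 0.05 (5.79%, against 5.14% over all genes). None of the 20 naive pluripotency genes passed, and their median log2 difference was 0.0052. Nanog was at 1090 and 1088 CPM in the parental line and 1274 and 1116 CPM in clone 16. Pou5f1 was at 789.9 and 851 CPM against 637 and 820.2 CPM, and Zfp42 at 1480.0 and 1232 CPM against 1413 and 1336 CPM. Klf2 was the highest of the list at 0.53 (SE 0.47), from 21.3 and 13.4 to 27.6 and 23.0 CPM. Of the 18 genes of the nuclear lamina and inner nuclear membrane none passed. Their median was 0.0027, with Lmnb1, a structural lamin, at 519 and 394 CPM against 634 and 456 CPM. The 11 tested genes of the FGF and ERK list had the lowest median after the neighbours, -0.38, and none passed. Actb, listed with the BAF complex because its product is a subunit, was at 999.3 and 1165 CPM in the parental line and 349 and 670 CPM in clone 16. It did not pass with the block (log2 difference -1.16, adjusted p = 0.319). Its lines did not overlap, but both clone libraries were below both parental ones in 8.99% of all genes tested.

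**Figure D4:**
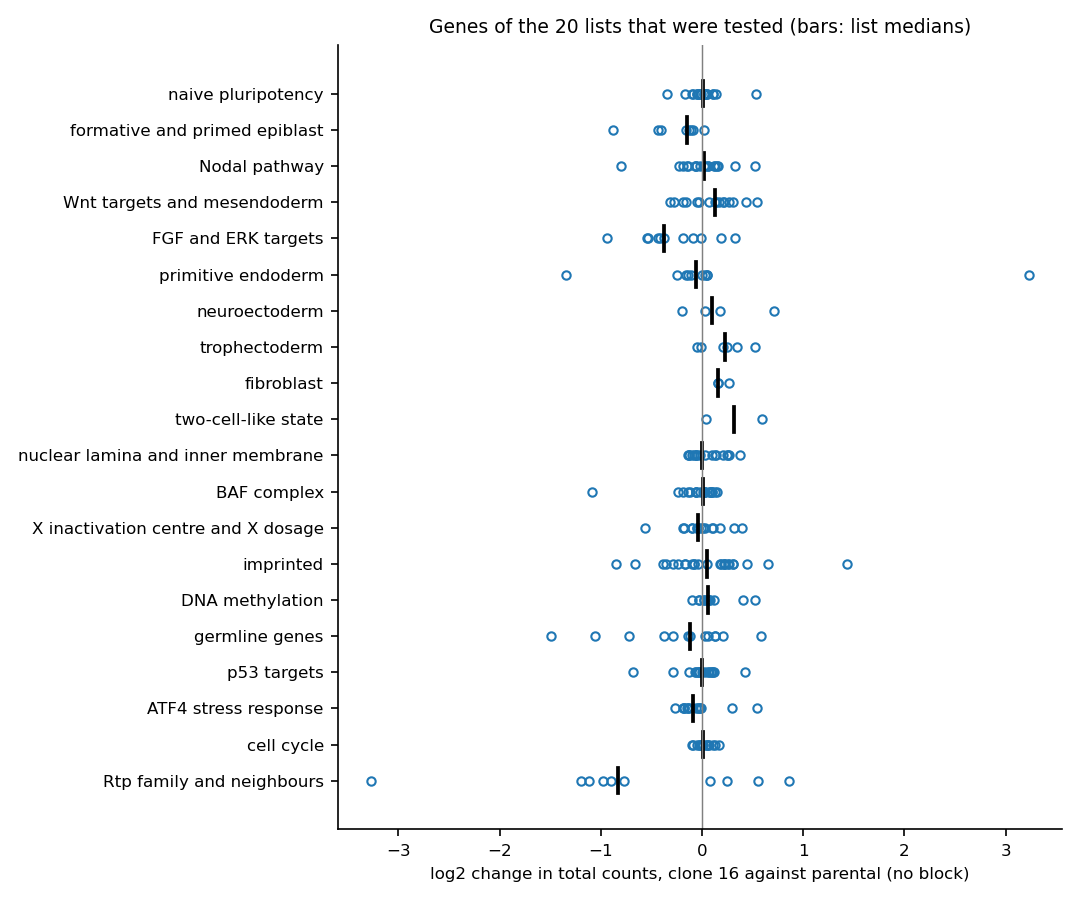
Log2 difference in total counts, clone 16 against parental and fitted without the block (x axis), of each tested gene on the 20 lists (rows), with the list median as a black bar. The median farthest from 0 is that of the chromosome 9 neighbours, grouped with the Rtp family, at -0.83, followed by the FGF and ERK list at -0.38; the isolated point on the right is Amn.

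The largest whole-chromosome difference was smaller between the d6 lines than between parental lines. The median difference within replicate number was taken for each chromosome over its genes (in allele counts, those with 20% to 80% of counts from 129S1). It stayed within 0.047 on the log2 scale in total counts and within 0.038 in CAST counts in each pair of d6 libraries. In 129S1 counts it reached 0.13 on the X chromosome in replicate 1, over 58 genes, and was -0.048 there in replicate 2. Between parental lines the same medians reached 0.19 in total counts, 0.29 in CAST counts and 0.33 in 129S1 counts. Those are maxima over more pairs of libraries than the 2 pairs of d6, and a maximum grows with the number of pairs. On chromosome 9 the mean of the 2 pairs was 0.0072 ± 0.010 (SD) in total counts. Over runs of 5 neighbouring genes, the lowest median in total counts was -1.71 for Lrrc2, Gm43535, Rtp3, 1700061E17Rik and Gm10030. The highest was 1.87 on the X chromosome, for 4933402E13Rik, Tslrn1, 3830417A13Rik, Gm14681 and Gm14692, of which only Gm14681 had more than 3 counts in any d6 library (981 and 995 CPM against 1168 and 881 CPM).

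The 2 clones of d3 showed the CAST decrease in the same genes, against a parental line of their own. CAST gave 28.99% of the Tdgf1 counts of the d6 parental line and 4.93% in clone 16, and 32.9% in the d3 parental line against 4.61% in d3 clone 12 and 4.98% in d3 clone 21. In the 7 groups of i7, i10 and i12 this share was 33.2% to 36.4%. For Lrrc2 it was 0.146% in d6 clone 16, 0.119% in d3 clone 12 and 0.281% in d3 clone 21, against 36.1% to 45.8% in the i7, i10 and i12 groups. Lrrfip2 kept 76.0% CAST in d6 clone 16, 76.7% in d3 clone 12 and 74.6% in d3 clone 21, against 84.8% to 90.2% in those 7 groups. The CAST share of Als2cl was 11.7% in d6 clone 16, and in the 4 clones of i7, i10 and i12 it was 7.46% to 26.8%, with their parental lines at 45.1% to 47.5%.

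**Figure D5:**
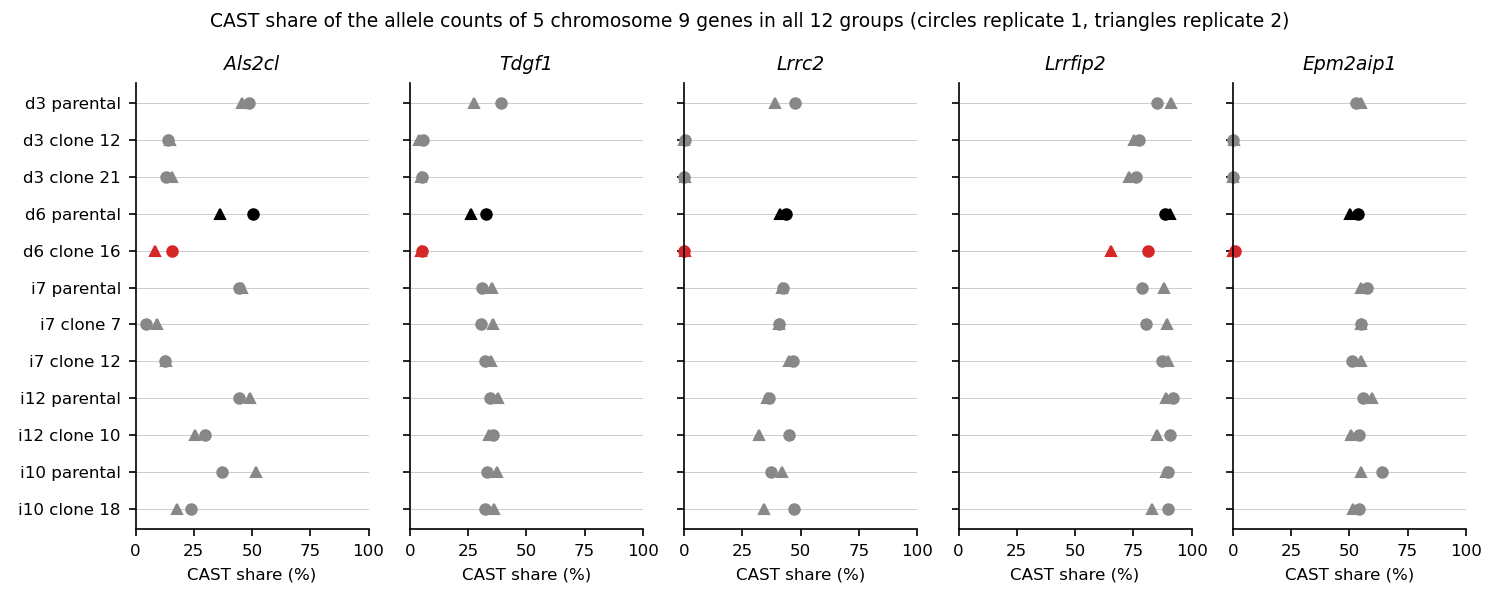
CAST share of the allele counts in percent (x axis) of 5 genes in every library, by group (y axis), with the d6 parental line in black, d6 clone 16 in red and the other groups in grey. Clone 16 lies with the 2 d3 clones for Tdgf1, Lrrc2, Lrrfip2 and Epm2aip1, and for Als2cl all clones lie below their parental lines.

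The difference between the d6 effect and the mean effect of the d3 clones was itself tested. In total counts no gene passed in edgeR's test (331 at an unadjusted p under 0.05; DESeq2 called 2), and 7 passed with the block. For Tdgf1 the difference was -0.04 (log2, SE 0.55) in total counts and -0.30 (SE 0.30) in the ratio. For Lrrc2 it was -0.07 (SE 0.30) in total counts and 0.22 (SE 1.50) in the ratio. The intervals are wide, so the clones are not shown to act alike. In the ratio, 297 of 10795 genes passed (2.75%), of which 292 lie on chromosome 14 and none within 2 Mb of Tdgf1. A comparison with d3 clone 12 alone was chosen after seeing the data. In the ratio, no gene passed in it without the block and 9 passed with the block, none of them on chromosome 14.

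One allelic difference on chromosome 9 was present in both d6 lines and so does not separate clone 16 from its parent. Smarcc1 (chr9:110117708-110240178), a core subunit of the BAF chromatin remodelling complex, gave 129S1 shares of 13.3% and 15.3% in the parental line and 11.8% and 15.2% in clone 16, a log2 ratio difference of -0.097 (SE 0.13) that did not pass. The 4 libraries of i10 were at 13.1% to 14.9%, and the 16 libraries of d3, i7 and i12 at 43.5% to 47.9%. Set against the mean of the 4 other parental lines, the d6 parental line was lower by a log2 ratio of -1.74 (SE 0.10, adjusted p = 6.78e-09), 1 of 20 genes that passed (0.185%). That count was 5 without d6 parental replicate 1, 6 without replicate 2, 11 with DESeq2 size factors or a lower count minimum and 52 with the block. Smarcc1 was singled out after its values were seen. In total it was at 261 and 201 CPM in the parental line and 249 and 222 CPM in clone 16 (log2 difference 0.026, SE 0.22).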

How the data were processed

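The authors deposited 1 table of raw counts, with 2 columns per library that its header assigns to the 129S1 and the CAST allele. Libraries were prepared with a stranded mRNA kit and sequenced single-end, per the labels' protocols. STAR, SAMtools and the build mm10 are named in the submitters' processing notes. The counting program, its annotation, its strand setting and the handling of reads without an allele are not given in the sources used here. Positions are from GENCODE M21 (GRCm38), which 48838 of 48985 gene identifiers matched.

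Allele counts were summed for totals. Counts were tested with edgeR 4.0.16 in R 4.3.3: TMM scaling, filterByExpr, and a quasi-likelihood fit in which each group of the 24 libraries had its own coefficient (16253 genes, 12 residual degrees of freedom). Adjusted p-values are Benjamini-Hochberg over all genes tested, and 0.05 was the threshold. For the ratio, both columns of a library entered 1 fit with an allele term per group, in 10795 genes. The replicate block added a term for replicate number within each recombination (7 residual degrees of freedom). Deviations from the group mean of same-numbered d6 libraries correlated over genes (r = 0.617). Between d6 clone 16 and groups of other recombinations, r ran from -0.205 (i7 parental) to 0.603 (d3 clone 21). The labels do not say that a number marks shared handling, so fits without the block come first. DESeq2 1.42.0, other filters, only the d6 libraries, and leaving out each library were alternatives. CPM are edgeR's, per allele where an allele is named. Log2 differences of genes at 0 depend on edgeR's prior count, so a floor of 3 counts over the group was used for them. Wilson intervals and floors cover counting error only.

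Simulated counts were fitted without the block, and the changed genes were drawn from those averaging 50 counts or more. With a coefficient of variation of 0.25, the total-count fit called 3% of genes changed 2-fold and 97% of those changed 4-fold. At 0.12 it called 91% and 100% (200 changed genes among 16253). The real fits had 0.246 without and 0.119 with the block. The blocked fit was not simulated, so the values at 0.12 do not give its rate of calls.

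The genes named are those called in total, 129S1 or CAST counts or the ratio (where over 15 were called, the 15 with the smallest p and a mean of at least 50 total counts), the genes tested within 2 Mb of Tdgf1, the lowest and highest runs of 5 neighbours, and, on the lists, those called, those with an unadjusted p under 0.05 and defining ones. Members and lists were chosen with earlier results of these data known. For 1 gene picked by this rule, results are not reported here.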

Additional observations from a re-analysis of the deposited data

Results flagged for a closer look

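The change of the 129S1 to CAST ratio in d6 clone 16 differed from the mean change in the 2 d3 clones in 297 of 10795 genes, by a test of the difference itself in edgeR at an adjusted p under 0.05. Of these, 292 lie on chromosome 14, and 294 of the 297 had the higher ratio change in d6. The 5 elsewhere are Selenoo (log2 difference 2.4, adjusted p = 0.0312), the processed pseudogenes Gm12335 (4.89, adjusted p = 0.000363), Gm8292 (-4.09, adjusted p = 0.000559) and Gm15057 (-4.14, adjusted p = 0.0372), and Gm13929 (-3.24, adjusted p = 0.0413), a transcribed processed pseudogene. Against d3 clone 12 alone no gene passed without the block and 9 passed with it, none on chromosome 14. In d3 clone 21 alone 367 genes passed against its parental line without the block, 350 of them on chromosome 14. In d6 clone 16 against its own parental line no gene on chromosome 14 passed in the ratio.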

How the results depend on the processing

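With the replicate block, which pairs libraries by number, the calls for d6 clone 16 were 14 in total counts, 21 in 129S1 counts, 27 in CAST counts and 33 in the ratio, against 2, 0, 5 and 5 without it. The genes called without the block were all called with it. With only the d6 libraries the counts were 0, 0, 2 and 4. In CAST counts Tdgf1 (adjusted p = 0.326), Rtp3 (0.526) and Epm2aip1 (0.067) did not pass in that fit. With only those libraries and the replicate block, which leaves 1 residual degree of freedom, the counts were 26, 142, 107 and 162. Without the filter on low counts they were 32, 25, 38 and 6. Leaving out each d6 library gave 1 call in total counts, 0 in 129S1 counts, 3 to 5 in CAST counts (3 without clone 16 replicate 1, where Tdgf1, adjusted p = 0.0957, and Rtp3, adjusted p = 0.0523, no longer passed) and 4 to 5 in the ratio. The d6 effect minus the d3 effect gave 7 calls in total counts with the replicate block, 2 with DESeq2, 28 without the filter and 0 otherwise. In the ratio it gave 354 calls with the block. Against d3 clone 12 alone, an alternative chosen after seeing the data, it gave 0 calls without the block and 9 with it. List members called in total counts were 1, with 3 under the replicate block, 0 with only the d6 libraries, 5 with only those and the block, 2 without the filter and 0 with any 1 library left out. Of the medians of chromosomes 9, 14 and X, the ones followed here, those that differed by more than their SD from the reported value were chromosome 14 in total counts against the mean of both parental libraries (0.0172), chromosome 14 in 129S1 counts over genes averaging 50 counts or more (0.0028), and X in CAST counts (0.0502 and 0.0314 in the same alternatives). Gm16165, called with the block, turned to -0.28 without clone 16 replicate 1 (log2 difference, adjusted p = 1). The cause of these differences between settings was not tested. With 2 libraries per line, a 2-fold change was rarely called without the block, so genes that did not pass are not shown to be equal.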

Other observations

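The share of CAST counts differed widely between genes of the chromosome 9 stretch in the lines of i7, i10 and i12. Dclk3, the doublecortin-like kinase gene, had 6.45% to 17.4% CAST in these 7 groups. Rtp3 leaned the other way, with up to 96.2% CAST in those groups and 81.9% in the d6 parental line. The pseudogene Rps2-ps9, picked after its values were seen, had total counts of 43 and 173 in the d6 parental replicates and of 32 and 25 in the clone. It did not pass with or without the block (log2 differences -2.21 and -2.60, adjusted p = 0.281 and 1).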
